A study of Mus musculus with 18 samples.

Results

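*Ahnak*, *Cyp4f18*, *Jaml*, *Cd36* and *Mocs1* are 5 genes of the 51912 in the table whose messages were lower in mouse B cells without endophilin A2, the membrane-bending protein encoded by *Sh3gl1*. They were picked because their levels were lower in Sh3gl1-/- than in wild-type (WT) cells in one or more of 3 cell states, and no numerical limit was set for the choice. The genotype differences of these genes are therefore given as a description, without p-values, and nothing is read from how many of them passed a test of that contrast. RNA was sequenced from sorted B cells of C57BL/6 mice that were WT or Sh3gl1-/- littermates. Transitional cells, the recent emigrants from bone marrow, and follicular cells, the main mature recirculating population, were taken untreated *ex vivo*. Follicular cells were also kept in culture with CD40L, by which T cells engage the CD40 receptor of B cells. The labels give 14 h for that culture, while the study's text describes it as overnight in one place and as a full day in another. Each of the 6 groups held 3 libraries, given as biological replicates from littermates, so there were 18 libraries, and whether 1 mouse gave cells to several states is not stated. The knockout is not described as restricted to B cells, and the cultured cells of either genotype had no control cultured without CD40L, so that culture and CD40L cannot be told apart.

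The 5 genes belong to unrelated families. *Ahnak* encodes a giant scaffold protein that binds annexin A2 and S100A10 at the plasma membrane and supports calcium channel signalling in lymphocytes. *Cyp4f18* encodes a cytochrome P450 that hydroxylates leukotriene B4, a chemoattractant lipid of myeloid cells, and so inactivates it. *Jaml* encodes an adhesion molecule of the junctional adhesion molecule type that binds the receptor CXADR on epithelial cells and is best known on neutrophils and some T cells. *Cd36* encodes a scavenger receptor that takes up long-chain fatty acids and oxidized lipoproteins. It is carried by macrophages, platelets and endothelium, and among mouse B cells it is known for its higher level on marginal zone cells. *Mocs1* encodes the enzymes of the first step of molybdenum cofactor synthesis, a cofactor that sulfite oxidase and xanthine dehydrogenase need.

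In GRCm38 coordinates with the GENCODE M21 annotation, all 5 are protein-coding genes and lie on 5 chromosomes. *Ahnak* (ENSMUSG00000069833) is at chr19:8989284-9076914 on the plus strand, with no overlapping gene. *Cyp4f18* (ENSMUSG00000003484) is at chr8:71988482-72009626 on the minus strand and overlaps *Zfp961* on the other strand, which had 15167 counts over all libraries. *Jaml* (ENSMUSG00000048534) is at chr9:45079183-45108534 on the plus strand and overlaps *Gm10684*, with 18 counts in all. *Cd36* (ENSMUSG00000002944) is at chr5:17781690-17888801 on the minus strand. *Mocs1* (ENSMUSG00000064120) is at chr17:49428362-49455435 on the plus strand and overlaps *Gm20540*, with 79 counts in all. It lies 6561315 bases from *Sh3gl1* on the same chromosome. The labels name a stranded kit, but no source used here says if the counting took account of strand, so reads from the overlapping partners of *Cyp4f18*, *Jaml* and *Mocs1* may have been shared with them.

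The sequences upstream of the 5 genes are shown because the genes were lower together, and they let their promoters be compared. All 5 matched RefSeq promoter entries of GRCm38.p6. The 250 bases before the start of transcription are given 5′ to 3′ on the strand of the gene, at chr19:8989034-8989283 (plus) for *Ahnak*, chr8:72009627-72009876 (minus) for *Cyp4f18*, chr9:45078933-45079182 (plus) for *Jaml*, chr5:17835897-17836146 (minus) for *Cd36* and chr17:49428114-49428363 (plus) for *Mocs1*. The RefSeq start of *Cd36* lies inside the longer span that GENCODE gives the gene. Capitals mark a match on either strand to the PU.1 type motif GAGGAA, the RBPJ type motif TGGGAA, the KLF type motif CACCC, the CCAAT box motif, the TATA box motif TATAAA or the E-box motif CACGTG.
Ahnak: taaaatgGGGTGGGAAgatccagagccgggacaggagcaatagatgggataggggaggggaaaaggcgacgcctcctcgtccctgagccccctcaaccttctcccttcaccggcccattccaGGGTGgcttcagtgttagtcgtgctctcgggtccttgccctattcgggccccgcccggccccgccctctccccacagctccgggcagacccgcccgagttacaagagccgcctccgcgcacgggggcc
Cyp4f18: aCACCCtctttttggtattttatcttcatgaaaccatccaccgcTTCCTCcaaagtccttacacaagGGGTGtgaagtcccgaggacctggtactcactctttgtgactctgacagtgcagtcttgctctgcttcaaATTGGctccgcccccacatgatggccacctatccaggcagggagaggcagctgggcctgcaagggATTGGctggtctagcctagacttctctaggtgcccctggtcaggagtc
Jaml: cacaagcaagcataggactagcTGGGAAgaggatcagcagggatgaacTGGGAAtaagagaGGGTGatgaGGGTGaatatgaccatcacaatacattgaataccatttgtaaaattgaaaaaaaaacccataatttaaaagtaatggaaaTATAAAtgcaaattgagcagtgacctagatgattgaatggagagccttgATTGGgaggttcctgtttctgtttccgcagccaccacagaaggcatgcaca
Cd36: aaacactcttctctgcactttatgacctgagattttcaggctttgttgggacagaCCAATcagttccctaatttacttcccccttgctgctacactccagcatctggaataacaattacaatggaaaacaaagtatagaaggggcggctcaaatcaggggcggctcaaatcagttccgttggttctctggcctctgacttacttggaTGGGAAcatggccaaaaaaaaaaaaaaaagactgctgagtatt
Mocs1: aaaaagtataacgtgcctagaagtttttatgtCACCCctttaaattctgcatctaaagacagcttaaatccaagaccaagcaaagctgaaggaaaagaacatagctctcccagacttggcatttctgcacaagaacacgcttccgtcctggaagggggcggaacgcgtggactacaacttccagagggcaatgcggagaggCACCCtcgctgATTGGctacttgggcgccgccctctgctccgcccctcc

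CACCC matched in 4 of 5 windows, all but that of *Cd36*, and it is held by 52.0% of 32851 RefSeq windows of the same length. CCAAT matched in 4 of 5, all but that of *Ahnak*, against 33.9% of all windows. TGGGAA matched in the windows of *Ahnak*, *Jaml* and *Cd36*, against 21.6% of all windows, and in *Ahnak* it overlaps a reverse match to the KLF type motif. The PU.1 type motif GAGGAA matched in that of *Cyp4f18* alone (23.3% of all windows) and the TATA box motif in that of *Jaml* alone (12.4%). The E-box motif, held by 6.02% of all windows, matched in none. No one of the 6 motifs was thus shared by the 5 windows. These are matches of letters and not known binding sites.

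Total expected counts per library ranged from 12404665 to 18366011. *Sh3gl1* checks the labels: it had 377 to 591 counts in transitional, 447 to 569 in follicular and 802 to 929 in CD40L-cultured WT libraries, against 4 to 11, 1 to 3 and 11 to 22 in the Sh3gl1-/- libraries. Levels are given in CPM, counts scaled to library size after TMM adjustment. A floor of 3 counts stood at 0.176 to 0.240 CPM, depending on the library, and covers counting error only. All libraries had the defining B cell markers *Ms4a1*, *Cd79a*, *Cd79b*, *Pax5*, *Ebf1* and *Cd22*, whose summed level was between 7474 and 17208 CPM. In bulk RNA, fewer cells carrying a message and less of it in each cell cannot be told apart.

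All 5 genes had lower group means in Sh3gl1-/- cells in each of the 3 states. A negative fold change in all 3 states was found for 16.6% of the 12397 genes tested in each. On the count scale *Mocs1* had the largest fold change in every state, and *Cd36* followed in transitional and follicular cells. In transitional cells every Sh3gl1-/- library was below every WT library for 5 of 5 genes, against 14.4% of the 13774 genes tested. In follicular cells this held for 4 of 5, all but *Jaml*, against 7.97% of 13610 genes. After CD40L it held for *Cyp4f18*, *Jaml* and *Mocs1*, 3 of 5, against 7.63% of 13188 genes. *Cyp4f18* and *Mocs1* showed it in all 3 states, as did 0.653% of the 12397 genes. With edgeR (quasi-likelihood test, p-values adjusted by Benjamini-Hochberg over all genes tested, threshold 0.05), 4 of 5 were called lower in transitional cells (all but *Ahnak*), where 2.48% of all genes were. In follicular cells 4 of 5 were called lower (all but *Jaml*), where 0.36% of all genes were, and after CD40L 1 of 5 (*Mocs1*), where 0.0227% were. The genes were picked on these very contrasts, so these counts only repeat the choice.

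**Figure D1:**
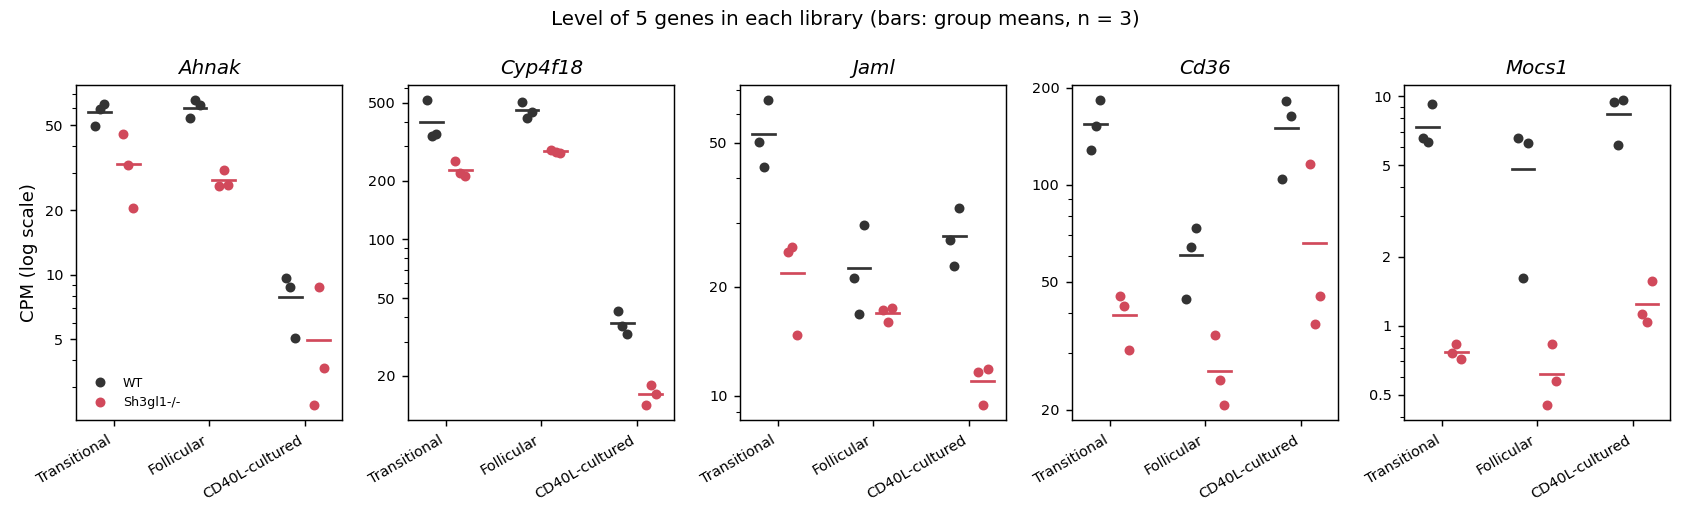
CPM of the 5 genes (log axis, its range differing between panels) in each of the 18 libraries, by cell state, with WT in grey and Sh3gl1-/- in red and horizontal bars at the means of 3 libraries. Red points lie below all grey points of the same state except in CD40L-cultured cells for *Ahnak* and *Cd36* and in follicular cells for *Jaml*.

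*Ahnak*, the membrane scaffold, was most clearly lower in follicular cells. There the WT libraries had 53.9, 65.4 and 61.8 CPM and the Sh3gl1-/- libraries 25.9, 30.9 and 26.3 CPM, a log2 fold change of -1.12 (SE 0.12). In transitional cells the WT libraries had 49.6, 59.5 and 62.7 CPM and the Sh3gl1-/- libraries 45.3, 32.6 and 20.5 CPM (log2 fold change -0.80, SE 0.24). The Sh3gl1-/- libraries of transitional cells were spread over a wide range, and the value was -1.10 without replicate 1 and -0.55 without replicate 3. After CD40L the message was low in both genotypes, at 9.73, 8.75 and 5.08 CPM in WT and 2.47, 8.78 and 3.69 CPM in Sh3gl1-/- cells. The genotypes overlapped in that state, and the log2 fold change of -0.63 (SE 0.46) became -1.32 without Sh3gl1-/- replicate 2 and -0.31 without Sh3gl1-/- replicate 1.

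*Cyp4f18*, the leukotriene B4 hydroxylase, was lower in each of the 3 states, by most after CD40L. The transitional WT libraries had 517, 341 and 347 CPM and the Sh3gl1-/- libraries 253, 219 and 211 CPM (log2 fold change -0.82, SE 0.16). WT replicate 1 stood above the other WT libraries there, and the value was -0.59 without it. In follicular cells the levels were 505, 418 and 450 CPM in WT and 288, 282 and 278 CPM in Sh3gl1-/- cells (log2 fold change -0.70, SE 0.08). After CD40L they were 42.8, 36.2 and 32.8 CPM in WT and 14.2, 17.97 and 16.2 CPM in Sh3gl1-/- cells (log2 fold change -1.18, SE 0.18). The genotypes did not overlap in any state, although the level itself was far lower in culture.

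*Jaml*, the adhesion molecule, was lower in Sh3gl1-/- cells in transitional and in CD40L-cultured cells, with a smaller gap in between. The transitional WT libraries had 50.2, 42.8 and 65.5 CPM and the Sh3gl1-/- libraries 24.9, 25.8 and 14.7 CPM (log2 fold change -1.27, SE 0.22). In follicular cells the levels were 21.1, 16.8 and 29.7 CPM in WT and 17.3, 16.0 and 17.5 CPM in Sh3gl1-/- cells. These overlapped, since WT replicate 2 lay within the Sh3gl1-/- range, and the log2 fold change of -0.41 (SE 0.19) became -0.58 without that library and -0.17 without WT replicate 3. After CD40L the WT libraries had 26.9, 22.8 and 32.9 CPM and the Sh3gl1-/- libraries 11.6, 9.42 and 11.8 CPM (log2 fold change -1.30, SE 0.20). The lowest WT library was again well above the highest Sh3gl1-/- library.

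*Cd36*, the fatty acid and lipoprotein receptor, had its largest genotype difference in transitional cells. The WT libraries had 128, 152 and 183 CPM there and the Sh3gl1-/- libraries 45.1, 42.1 and 30.6 CPM (log2 fold change -1.97, SE 0.17). Follicular cells had less of the message, at 44.3, 64.1 and 73.2 CPM in WT and 34.1, 24.7 and 20.7 CPM in Sh3gl1-/- cells (log2 fold change -1.19, SE 0.21). After CD40L the WT libraries had 104, 182 and 163 CPM and the Sh3gl1-/- libraries 116, 36.9 and 45.1 CPM. Here 1 library, Sh3gl1-/- replicate 1, lay within the WT range while the other two were below it. The log2 fold change of -1.15 (SE 0.39) was -1.84 without that library and -0.87 without Sh3gl1-/- replicate 2.

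*Mocs1*, the molybdenum cofactor gene, was scarce in WT cells and close to the counting floor in Sh3gl1-/- cells. The transitional WT libraries had 6.55, 6.33 and 9.23 CPM and the Sh3gl1-/- libraries 0.761, 0.829 and 0.718 CPM (log2 fold change -3.24, SE 0.32). In follicular cells the WT libraries had 6.54, 1.60 and 6.24 CPM and the Sh3gl1-/- libraries 0.450, 0.829 and 0.572 CPM (log2 fold change -2.93, SE 0.57). WT replicate 2 was the lowest WT library by far, and the value was -3.34 without it. After CD40L the levels were 9.38, 6.15 and 9.60 CPM in WT and 1.13, 1.04 and 1.57 CPM in Sh3gl1-/- cells (log2 fold change -2.71, SE 0.32). The Sh3gl1-/- libraries held between 6 and 25 counts of the gene and the WT libraries between 26 and 157.

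**Figure D2:**
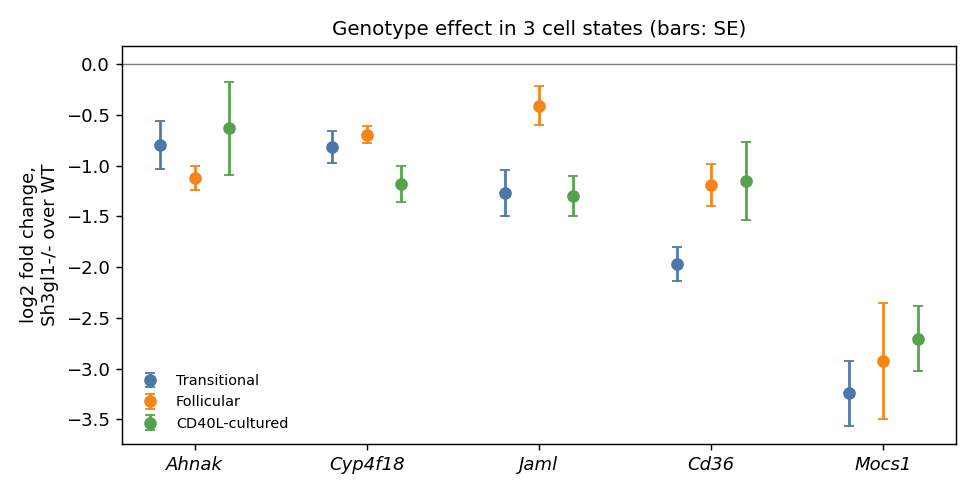
Log2 fold change of Sh3gl1-/- over WT cells for the 5 genes in transitional, follicular and CD40L-cultured cells (points), with its standard error (bars). All 15 points lie below 0, from -0.41 for *Jaml* in follicular cells to -3.24 for *Mocs1* in transitional cells.

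On the count scale, the log2 genotype effect over the 3 states spread most for *Jaml* (-0.41 to -1.30) and *Cd36* (-1.15 to -1.97). It spread less for *Mocs1* (-2.71 to -3.24), *Ahnak* (-0.63 to -1.12) and *Cyp4f18* (-0.70 to -1.18). Between CD40L-cultured and follicular cells the log2 effect differed by -0.91 (SE 0.29) for *Jaml* and by -0.50 (SE 0.17) for *Cyp4f18*, that is, the deficit was larger in culture. For *Cd36* (0.02, SE 0.50), *Mocs1* (0.20, SE 0.65) and *Ahnak* (0.47, SE 0.47) the change was within about 1 SE of 0. Sh3gl1-/- replicates of the cultured cells decide the values of *Ahnak* and *Cd36*, which were -0.20 without replicate 2 and -0.65 without replicate 1. Between follicular and transitional cells the effect differed by 0.85 (SE 0.32) for *Jaml* and by 0.76 (SE 0.30) for *Cd36*, the deficit being smaller in follicular cells. It differed by -0.34 (SE 0.29) for *Ahnak*, 0.30 (SE 0.69) for *Mocs1* and 0.10 (SE 0.19) for *Cyp4f18*. The latter was -0.12 without transitional WT replicate 1. None of the 5 genes was among those called in edgeR's test of these differences over all genes. That test called 0 of 14460 genes for CD40L-cultured against follicular cells (1278 at an unadjusted p under 0.05, and 29 called by DESeq2). It called 10 of 14580, or 0.0686%, for follicular against transitional cells. Both differences share the follicular libraries.

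The levels also moved between states, which the choice of genes did not use when both genotypes are averaged. With CD40L, *Ahnak* and *Cyp4f18* fell, *Cd36* and *Mocs1* rose, and *Jaml* did not pass the test. *Cyp4f18* fell by 3.90 on the log2 scale (SE 0.10, adjusted p = 2.6e-12 by edgeR's quasi-likelihood test). *Ahnak* fell by 2.74 (SE 0.24, adjusted p = 3.8e-07 by the same edgeR test). Both genes were lower in every cultured library than in every follicular library of the same genotype. *Cd36* rose by 1.29 (SE 0.26, adjusted p = 6.1e-04 by edgeR) and by 0.95 without CD40L-cultured Sh3gl1-/- replicate 1. *Mocs1* rose by 0.88 (SE 0.34, adjusted p = 0.037 by edgeR), a call that was lost in 5 of 12 fits that left out 1 library. Those were CD40L-cultured WT replicates 1 and 3 (adjusted p = 0.060 and 0.064 by edgeR), CD40L-cultured Sh3gl1-/- replicate 3 (0.077) and follicular Sh3gl1-/- replicates 1 and 3 (0.082 and 0.068). *Jaml* changed by -0.19 (SE 0.14, adjusted p = 0.27 by edgeR). The genes thus split into 2 lower and 2 higher, where 31.3% and 28.8% of the 14460 genes tested were called lower and higher. A two-sided exact permutation test of log2 CPM within genotypes gave p = 0.005 for *Ahnak*, *Cyp4f18* and *Cd36*, the smallest that its 400 permutations allow. It gave p = 0.015 for *Mocs1* and p = 0.47 for *Jaml* in the same exact test.

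By genotype, the CD40L change of *Jaml* was 0.26 in WT cells (SE 0.20), against -0.64 without endophilin A2 (SE 0.21). All 3 WT cultures were above the follicular WT mean of 22.5 CPM and all 3 Sh3gl1-/- cultures were below the follicular Sh3gl1-/- mean of 16.9 CPM. The WT ranges of the 2 states overlapped, and the lowest WT culture, at 22.8 CPM, was barely above that mean. Each WT culture was above, and each Sh3gl1-/- culture below, the follicular library with the same replicate number, although these numbers were not taken as pairing between the 2 states. For *Cd36* the change was almost the same in both genotypes, with a log2 change of 1.28 in WT cells (SE 0.36) and of 1.298 in Sh3gl1-/- cells (SE 0.37). For *Mocs1* it was 0.78 (SE 0.42) and 0.98 (SE 0.53). The 2 genes that fell did so in both genotypes, with log2 changes for *Ahnak* of -2.97 in WT cells (SE 0.34) and -2.51 in Sh3gl1-/- cells (SE 0.35). For *Cyp4f18* the log2 changes were -3.65 (SE 0.13) and -4.15 (SE 0.14).

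From transitional to follicular cells, averaged over the genotypes, *Cd36* and *Jaml* fell and the other genes did not pass the test. That main fit, like the permutation test, took no account of replicate numbers. *Cd36* fell by 0.96 on the log2 scale (SE 0.15, adjusted p = 2.8e-04 by edgeR's quasi-likelihood test) and *Jaml* by 0.80 (SE 0.16, adjusted p = 0.0019 by edgeR). The exact permutation test gave p = 0.01 and p = 0.02. The log2 change was larger in WT cells for both, at -1.34 (SE 0.21) against -0.58 (SE 0.22) in Sh3gl1-/- cells for *Cd36* and at -1.23 (SE 0.23) against -0.38 (SE 0.23) for *Jaml*. These are 2 of 5 genes called lower, against 16.9% of the 14580 genes tested, while 13.6% were called higher. *Cyp4f18* changed by 0.25 (SE 0.10, adjusted p = 0.066 by edgeR, exact permutation p = 0.05). Same-numbered transitional and follicular libraries of a genotype deviated together. With the replicate block, which joins equal numbers of both genotypes, the value for *Cyp4f18* was 0.26 (adjusted p = 0.0135 by edgeR). With a block for each number within a genotype, which follows that pairing, it was 0.26 (adjusted p = 0.0057 by edgeR). The latter block was chosen after seeing the data. Without transitional WT replicate 1 the main fit gave 0.36 for *Cyp4f18* (adjusted p = 0.0011 by edgeR). *Mocs1* changed by -0.47 (SE 0.34, adjusted p = 0.33 by edgeR, exact permutation p = 0.08). *Ahnak* changed by -0.09 (SE 0.15, adjusted p = 0.69 by edgeR, exact permutation p = 0.81), and by 0.07 without transitional Sh3gl1-/- replicate 1.

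**Figure D3:**
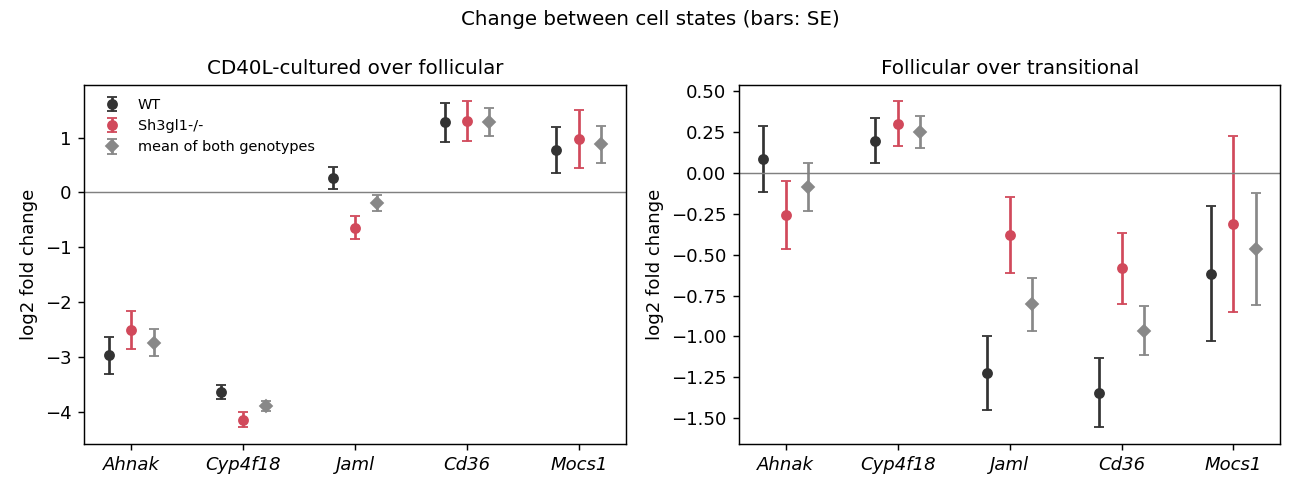
Log2 change of the 5 genes from follicular to CD40L-cultured cells (left) and from transitional to follicular cells (right), in WT cells (grey circles), Sh3gl1-/- cells (red circles) and averaged over both (diamonds), with standard errors. The left panel spans from -4.15 for *Cyp4f18* to 1.298 for *Cd36* in Sh3gl1-/- cells, and *Jaml* is the gene whose genotypes lie on either side of 0.

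In order of level, WT cells had most *Ahnak* and *Cyp4f18* as follicular cells (60.4 ± 5.84 and 458 ± 43.8 CPM, SD, n = 3), closely followed by transitional cells (57.3 ± 6.80 and 401 ± 100.02 CPM), whose ranges overlapped, and least after CD40L (7.85 ± 2.45 and 37.3 ± 5.11 CPM). They had most *Jaml* as transitional cells (52.8 ± 11.6 CPM), ahead of cultured (27.5 ± 5.09) and follicular cells (22.5 ± 6.57), and the ranges of the latter pair overlapped. *Cd36* was alike in transitional (154 ± 27.6 CPM) and cultured WT cells (150 ± 40.4), with follicular cells below both (60.5 ± 14.8). For *Mocs1* the order was cultured (8.38 ± 1.93 CPM), transitional (7.37 ± 1.62) and follicular (4.80 ± 2.77), with overlap between neighbours. In Sh3gl1-/- cells *Cyp4f18* was again highest in follicular cells (283 ± 5.03 CPM), here without overlap with transitional cells (228 ± 22.6). *Ahnak* was at 32.8 ± 12.4 CPM in transitional and 27.7 ± 2.80 in follicular Sh3gl1-/- cells, which overlapped. *Jaml* ran from transitional (21.8 ± 6.15 CPM) over follicular (16.9 ± 0.815) to cultured Sh3gl1-/- cells (10.97 ± 1.34), and the first pair overlapped. *Cd36* was at 66.1 ± 43.7 CPM in cultured, 39.3 ± 7.68 in transitional and 26.5 ± 6.89 in follicular Sh3gl1-/- cells, with overlap between neighbours. *Mocs1* was highest in cultured Sh3gl1-/- cells (1.24 ± 0.282 CPM), above transitional (0.769 ± 0.0559) and follicular cells (0.617 ± 0.193), and the latter pair overlapped.

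Per transcript length, the genes were far apart in level. In follicular WT cells *Cyp4f18* stood at 351 TPM, rank 387 among 22119 genes above 0. *Cd36* had 31.0 TPM, *Jaml* 13.3, *Ahnak* 4.53 and *Mocs1* 2.52 TPM. *Ahnak*, whose message is exceptionally long, thus had a low TPM for its CPM. After CD40L the order in WT cells changed, with *Cd36* at 66.6 TPM ahead of *Cyp4f18* at 25.5 TPM.

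For *Mocs1* the length on which the reads were placed also differed between genotypes. RSEM weighs each gene's transcripts, and the mean effective length that follows from the deposited counts and FPKM was 1754 to 2557 bases in all WT libraries. In Sh3gl1-/- libraries it was 640 to 1371 bases, below every WT library in each of the 3 states. The medians were 2382 against 894 bases in transitional, 2150 against 716 in follicular and 2176 against 821 in cultured cells. GENCODE M21 lists 7 *Mocs1* transcripts of 421 to 2646 bases, whereas the deposited table names 8, so the set that RSEM weighed is not exactly this one. The Sh3gl1-/- lengths rest on the few counts there. On the TPM scale, which divides by this length, the deficit of *Mocs1* was smaller. Its log2(TPM + 0.1) differed by -2.10 in transitional, -1.27 in follicular and -1.21 in cultured cells. On that scale *Mocs1* did not have the largest difference of the 5 genes in follicular cells, where *Cd36* was at -1.33 and *Ahnak* at -1.30. Nor did it in cultured cells, where *Jaml* was at -1.38. For *Mocs1* the Sh3gl1-/- libraries had 0.72 to 1.02, 0.43 to 1.37 and 1.47 to 1.77 TPM in these 3 states. The WT libraries had 3.06 to 4.74, 0.91 to 3.59 and 2.89 to 4.70 TPM, so that follicular cells overlapped. *Ahnak* went the other way in follicular cells, with 15361 to 16662 bases in WT and 17326 to 18011 in Sh3gl1-/- libraries. For *Jaml* the length was 1893 to 2147 bases in transitional WT and 2198 to 2327 in Sh3gl1-/- libraries, and in the other states the ranges overlapped. *Cyp4f18* stayed between 1486 and 1588 bases in all 18 libraries. This measure was looked at after the values of *Mocs1* had been seen.

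**Figure D4:**
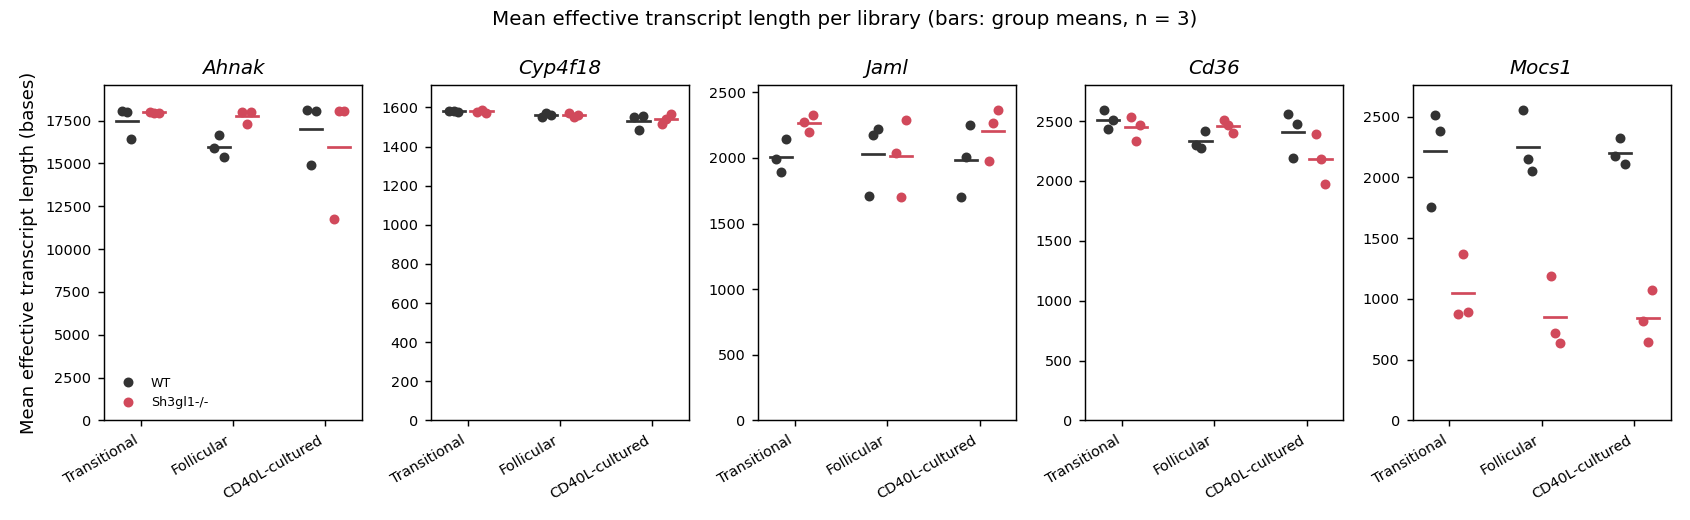
Mean effective transcript length (bases, linear axes from 0) of the 5 genes in each library, WT in grey and Sh3gl1-/- in red, with bars at the means of 3 libraries. For *Mocs1* every red point (640 to 1371 bases) is below every grey point (1754 to 2557 bases), while *Cyp4f18* forms a flat line.

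*Ahnak* and *Cyp4f18* followed almost the same course over the 18 libraries, with a Pearson r of 0.96 in log2 CPM. *Cd36* and *Mocs1* had r = 0.81, *Jaml* and *Mocs1* 0.69, *Jaml* and *Cd36* 0.64, and *Ahnak* and *Cd36* -0.12. These values describe libraries that share states and genotypes. For deviations from the group means r was 0.40 for *Ahnak* and *Cyp4f18*, -0.16 for *Cd36* and *Mocs1*, 0.59 for *Jaml* and *Mocs1* and 0.36 for *Jaml* and *Cd36*. Of 15117 genes, the most like *Ahnak* were *Pik3c2b* (0.96), which makes phosphoinositides, *Lbh* (0.96) and *Cyp4f18*. The most like *Cyp4f18* were *Stac2* (0.99), *Bank1* (0.98), a B cell scaffold for signalling, and *Gimap7* (0.98), a GTPase of lymphocytes. For *Jaml* they were *Dnajc7* (0.93), a co-chaperone, *Hmox2* (0.90), a heme oxygenase, and *Pmf1* (0.89), a kinetochore component. For *Cd36* they were *Ncf4* (0.90), a subunit of the phagocyte oxidase, *Sp140* (0.89), a nuclear body protein, and *Ppp1ca* (0.88), a phosphatase catalytic subunit. Because *Mocs1* was picked for a lower level in Sh3gl1-/- cells, a likeness to *Sh3gl1* follows in part from the choice. *Mocs1* was most like *Sh3gl1* itself (0.93), then *Mpnd* (0.89) and *Hmga1* (0.88), a chromatin protein whose near-identical copies elsewhere in the genome may share its reads. All 3 of these lie on chromosome 17, as *Mocs1* does, with *Hmga1* 28453076 bases from *Sh3gl1*. *Lbh*, named above for *Ahnak*, lies on chromosome 17 as well, 16881670 bases from *Sh3gl1*. *Mpnd*, whose end overlaps that of *Sh3gl1* on the annotation, had a log2 fold change between genotypes of -4.45, -4.84 and -3.97 in transitional, follicular and cultured cells, and *Hmga1* of -1.37, -0.998 and -1.70.

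Of the related pathway genes, 2 of 39 tested were called between genotypes in transitional cells, where 3.73% of all genes were called in either direction. In follicular cells 1 of 37 was called, where 0.845% of all genes were, and after CD40L 0 of 34, where 0.0227% were. Of 7 tested genes around AHNAK and annexin A2, *Anxa6*, a calcium-dependent membrane binder, was lower in transitional Sh3gl1-/- cells (log2 fold change -0.45, SE 0.08, adjusted p = 0.026 by edgeR) and the others were not called in any state. The list's median was -0.14, -0.19 and -0.42 in transitional, follicular and cultured cells, where that of all genes tested was 0.02, 0.00 and 0.01. Binding partner *S100a10* had log2 fold changes of -0.19, -0.19 and -0.42 in these states, and *Anxa2* -0.03, -0.10 and -0.48, and both were chosen after their values were seen. Here and for the other lists, the shares of all genes called with CD40L were 31.3% lower and 28.8% higher, and from transitional to follicular cells 16.9% lower and 13.6% higher. With CD40L, 5 of these 7 fell and 1 rose, led by *S100a6* (-2.73) and *Anxa1* (-1.87), and *Ahnak* itself fell by 2.74. From transitional to follicular cells 1 of 7 fell, *Anxa6* (-0.35).

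None of the 4 tested relatives and partners of *Cyp4f18* was called between genotypes in any state. The most abundant, *Cyp4f13*, was at 21.1 TPM over the 18 libraries. With CD40L *Por* (0.88), the electron donor of these enzymes, rose, and *Cyp4f16* (-0.76) and *Cyp4f13* fell. From transitional to follicular cells *Por* fell (-0.43) and *Cyp4f13* rose (0.38). Of the leukotriene B4 genes, 4 were tested in transitional and follicular cells and 3 after CD40L, and 0 were called between genotypes. Among them *Lta4h*, the enzyme that makes leukotriene B4, was most abundant at 91.8 TPM, while the receptor gene *Ltb4r1* reached no more than 0.068 CPM in any library and the list's other receptor was not tested. With CD40L *Alox5* (-3.75) and *Alox5ap* (-2.93), which act first in the pathway, fell, and *Lta4h* rose. *Alox5* was scarce, with at most 0.84 CPM in follicular WT and 2.55 CPM in follicular Sh3gl1-/- libraries. *Pla2g4a*, the phospholipase that releases the precursor, was lower in follicular than in transitional cells (-2.41).

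The junctional adhesion list was nearly silent. Of its 9 genes 2 were tested in transitional cells, 0 in follicular cells and 2 after CD40L, and 0 were called between genotypes. The most abundant, *F11r*, had 0.88 TPM, and the JAML ligand gene *Cxadr* had at most 2.56 CPM in a library. *F11r* rose with CD40L (1.76) and was lower in follicular than in transitional cells (-3.06). In the molybdenum list 5 to 7 genes were tested per state and 0 were called between genotypes. *Mocs2*, which acts after *Mocs1* in the same pathway, was most abundant at 34.0 TPM, and its log2 fold changes between genotypes were -0.03, 0.19 and -0.06 in transitional, follicular and cultured cells. *Xdh* (-5.39) and *Marc2* (-1.21) fell with CD40L, and *Gphn*, the last enzyme of the pathway, rose (0.95). *Xdh* was scarce, with at most 1.81 CPM in follicular WT and 3.68 CPM in follicular Sh3gl1-/- libraries. From transitional to follicular cells *Gphn* fell (-0.45) and *Marc2* rose (0.39).

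Of the scavenger receptor and fatty acid genes, 17, 15 and 13 were tested in transitional, follicular and cultured cells. *Acsl5*, which activates fatty acids, was lower in transitional Sh3gl1-/- cells (-0.54, SE 0.10, adjusted p = 0.029 by edgeR). *Plin2*, the coat protein of lipid droplets, was higher in follicular Sh3gl1-/- cells (0.65, SE 0.13, adjusted p = 0.048 by edgeR), in the state where *Cd36* had a log2 fold change of -1.19. The list's median was 0.04, 0.13 and -0.02. With CD40L 8 of 16 fell and 6 rose (31.3% and 28.8% of all genes), the largest changes being those of *Pparg* (-6.37) and *Marco* (-5.50). *Pparg* was scarce, with at most 0.68 CPM in follicular WT and 1.43 CPM in follicular Sh3gl1-/- libraries. From transitional to follicular cells 8 of 18 fell and 0 rose (16.9% and 13.6% of all genes), led by *Cd163* (-4.31) and *Msr1* (-3.08), scavenger receptors of macrophages.

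Markers of other cell types moved with the groups as well. The 9 marginal zone markers summed to 1023 to 1098 CPM in transitional WT and 786 to 854 in Sh3gl1-/- libraries, to 1199 to 1420 against 953 to 1085 in follicular cells and to 577 to 684 against 424 to 484 after CD40L. These ranges did not overlap in any state, and *Cd1d1* alone was called, lower in transitional Sh3gl1-/- cells (log2 fold change -0.69, adjusted p = 0.013 by edgeR). The sum was mostly *Cr2*, *Cd1d1* and *Notch2*. Some scarcer markers had higher means in Sh3gl1-/- cells. *Myof* did in each state, *Asb2* in transitional (3.09 against 1.86 CPM) and follicular cells (1.19 against 0.534) and *Cd9* in follicular cells (23.4 against 22.7). The other means were lower in Sh3gl1-/- cells. Monocyte and macrophage markers summed to 573 to 720 CPM in transitional WT and 511 to 885 in Sh3gl1-/- libraries, to 108 to 152 against 117 to 281 in follicular cells and to 50.6 to 84.8 against 38.8 to 65.5 after CD40L. These sums overlapped between genotypes in each state and were highest in transitional cells. In cultured cells the sum was mostly *Adgre1*, at 43.4 to 78.4 CPM in WT and 30.9 to 37.9 CPM in Sh3gl1-/- libraries. With CD40L 1 of 7 tested markers of this list was called higher and 6 lower, where 28.8% and 31.3% of all genes were. Summed erythroid and platelet markers were higher in Sh3gl1-/- transitional cells (2735 to 5844 against 1413 to 2427 CPM) and overlapped in the other states. In transitional cells 4 of 7 were called higher where 1.26% of all genes were, all erythroid (*Alas2*, *Hbb-bs*, *Hbb-bt* and *Hba-a1*). The platelet markers *Pf4*, *Ppbp* and *Itga2b* were not called. Their means there were 0.987, 1.21 and 0.635 CPM in Sh3gl1-/- against 1.18, 1.78 and 1.07 CPM in WT cells. Neutrophil markers, of a cell type known for *Cyp4f18* and *Jaml*, were higher in Sh3gl1-/- cells, at 122 to 598 against 58.1 to 106 CPM in transitional, 188 to 835 against 70.8 to 184 in follicular and 52.9 to 198 against 9.97 to 41.2 in cultured cells. Of these markers *Camp* was called, higher in transitional Sh3gl1-/- cells (log2 fold change 2.39, adjusted p = 0.049 by edgeR). Transitional markers summed to less in Sh3gl1-/- cells (505 to 804 against 874 to 1009 CPM in transitional cells), and *Cd24a* was called lower in transitional (-0.87) and follicular cells (-0.75, adjusted p = 0.026 and 0.0040 by edgeR). That sum was mostly *Vpreb3* and *Cd24a*. *Cd93* was not called, and its log2 fold changes were 0.22, 0.71 and -0.27 in transitional, follicular and cultured cells. Those of *Vpreb3*, also not called, were -0.53, -0.37 and -1.23. Plasma, B-1 and memory cell markers summed to 1357 to 4810 CPM in transitional Sh3gl1-/- against 655 to 919 in WT libraries, with *Jchain* called higher (log2 fold change 2.35, adjusted p = 0.026 by edgeR). That sum was mostly *Jchain*, at 1065 to 4513 against 406 to 648 CPM. The other 11 markers of the list were not called there, and their means went both ways. The general B cell markers summed to 11647 to 15099 against 15016 to 17208 CPM in transitional, 10165 to 10799 against 11422 to 11717 in follicular and 7474 to 7487 against 7928 to 8486 in cultured cells, the Sh3gl1-/- libraries being given first. Summed follicular and dendritic cell markers overlapped between genotypes in each state, and of them *Cxcr5*, a follicular marker, was called, lower in transitional Sh3gl1-/- cells (log2 fold change -0.44, adjusted p = 0.029 by edgeR). T and NK cell markers were at 107 to 168 against 70.0 to 111 CPM in transitional, 186 to 253 against 103 to 158 in follicular and 23.3 to 30.4 against 15.6 to 17.4 in cultured cells, the Sh3gl1-/- libraries being given first. Of these, *Cd28* was called higher in transitional Sh3gl1-/- cells (1.34, adjusted p = 0.028 by edgeR), and *Cd3e* (1.37) and *Cd3d* (0.87) in follicular cells (adjusted p = 0.0040 and 0.0497 by edgeR), where 0.485% of all genes were called higher. The part of these cell types in the levels of the 5 genes was not tested.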

How the data were processed

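RNA of 18 B cell libraries in 6 groups was measured, with groups, replicate numbers and genotypes taken from the sample labels. The 54 value columns of the deposited table were each matched to 1 library, and 0 were left out. The authors' RSEM expected counts are estimates of reads per gene, not normalized. The deposited TPM and the deposited FPKM are the authors' values scaled for transcript length and library. The submitters' processing notes name cutadapt 1.9.1, STAR 2.5.2a, RSEM 1.3.0 and GRCm38. The study's methods instead name TopHat and Cufflinks, and SMART-Seq HT with Nextera XT where the labels name a KAPA kit.

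Expected counts were rounded, since 10.3% to 11.6% of them, depending on the library, held a decimal part. Tests used edgeR 4.0.16 in R 4.3.3 (TMM, filterByExpr by group, quasi-likelihood test) with Benjamini-Hochberg adjustment over all genes tested and a threshold of 0.05. The SE is the log2 fold change divided by the square root of F. Genotypes were compared within each state. State effects, and differences of the genotype effect between states, were fitted on 12 libraries with 1 coefficient per group. A state effect averaged over genotypes is orthogonal to the contrasts by which the genes were chosen. CPM values per library are TMM-scaled, and log2 CPM used a prior count of 2. Permutation tests shuffled state labels within a genotype. Effective length was the expected count divided by FPKM, scaled by the library's total. Scripts were tested on simulated counts. Alternatives were DESeq2 1.42.0, RLE scaling, other filters, all 18 libraries in 1 fit, limma 3.58.1 on log2(TPM + 0.1), a replicate block and leaving out each library.

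The 5 genes and the gene lists were chosen with earlier results of these data known. Of the list genes, 3 are not reported here and were left out of their lists. Named beside the 5 genes were *Sh3gl1*, for each gene the 3 with the most similar profile, pathway list genes past the threshold between genotypes (for a list with none, its most abundant gene), and in state comparisons the 2 largest changes of a list. Marker genes outside this rule are named where they passed the threshold, after their values were seen. Replicates were biological replicates per the labels of the series, and pairs of libraries within a group differed by more than sampling noise (chi-square per degree of freedom 9.25 to 47.8). Over 15117 genes, deviations of same-numbered transitional and follicular libraries correlated at 0.10 to 0.24 in WT and 0.11 to 0.26 in Sh3gl1-/- cells, over 0.1 in each pair, so these numbers were taken as pairing. The main fit and the permutation test did not use that pairing, and the replicate block also joined equal numbers of both genotypes. Only the block within genotype follows it. Between genotypes the correlations were -0.088 to 0.10, and for follicular and cultured libraries 0.14 to 0.22 in WT but 0.030 to 0.12 in Sh3gl1-/- cells, so not over 0.1 in each pair there.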

Additional observations from a re-analysis of the deposited data

Results flagged for a closer look

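The *Jaml* levels after CD40L lay on opposite sides of the follicular means in the 2 genotypes. In log2 CPM the change was lower by 0.94 in Sh3gl1-/- than in WT cells (a difference of -0.94), with every cultured WT library above the follicular WT mean and every cultured Sh3gl1-/- library below the follicular Sh3gl1-/- mean. The WT ranges of the 2 states overlapped, and the fitted change in WT cells was 0.26 (SE 0.20). The difference was not tested for *Jaml* on its own, because the gene was chosen on the genotype contrasts, and edgeR's test over all genes called 0 genes for this difference.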

How the results depend on the processing

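Leaving the 5 genes' fold changes aside, how many genes were called lower in Sh3gl1-/- cells depended on the tool and filter. In transitional cells it was 341, and 842 with DESeq2, 847 with all genes with at least 1 count, 69 with all 18 libraries in 1 fit, 129 with limma on log2 TPM and 58 with the replicate block. In follicular cells it was 49, and 153, 262, 20, 24 and 76 in the same order. After CD40L it was 3, and 28, 83, 34, 1 and 9. Leaving out 1 library gave 19 to 314, 13 to 43 and 1 to 7 genes. The difference of the genotype effect between CD40L-cultured and follicular cells was called for 0 genes, 29 with DESeq2, 210 with all genes and 0 to 1 when 1 library was left out. That between follicular and transitional cells was called for 10 genes, 364 with DESeq2, 462 with all genes, 0 with limma, 20 with the replicate block, 99 with the block within genotype and 0 to 23 when 1 library was left out.

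For the 5 genes, the genotype effect moved by more than the spread in 4 cases, all with limma on log2 TPM. *Ahnak* in follicular cells was -1.30, and *Mocs1* was -2.10, -1.27 and -1.21 in transitional, follicular and cultured cells, with the effective length as the divisor. The follicular against transitional change of *Cyp4f18* passed the threshold at 0.24 with DESeq2, 0.25 with all genes, 0.26 with the replicate block and 0.26 with the block within genotype, and ranged from 0.20 to 0.36 when 1 library was left out. That of *Ahnak* ranged from -0.21 to 0.07 and turned positive (0.066) without transitional Sh3gl1-/- replicate 1. The CD40L change of *Mocs1* ranged from 0.71 to 1.05. The difference of the genotype effect ranged from -0.20 to 0.80 for *Ahnak* and from -0.65 to 0.32 for *Cd36* between cultured and follicular cells, and from -0.12 to 0.21 for *Cyp4f18* between follicular and transitional cells. The causes were not tested. The replicate block changed no other call among the state effects of the 5 genes. RLE scaling and the stricter filter changed no direction and no call. Counts of 6 to 25 limit the precision of *Mocs1* in Sh3gl1-/- cells.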
